A study of Mus musculus with 4 samples.

Results

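HBC2 is one of a pair of horizontal basal cell (HBC) groups that the authors named in a single-cell RNA-seq dataset of the mouse main olfactory epithelium. Its members were chosen by the deposited cell annotation and comprise 544 of 15859 retained cells, with 225, 61, 136 and 122 cells from mice 1 to 4. All 4 animals were 8-week-old males at rest, labelled C57BL/6 and of the J substrain by the study's methods, for which the labels name no transgene and no treatment, so the only comparisons available are between cell types of the same animals. Each mouse gave 1 library of dissociated, dye-sorted live nucleated cells. HBC2 was compared with HBC1, the other horizontal basal group (210 cells), and with globose basal cells (GBC, 202 cells), on UMI (unique molecular identifier) counts summed over the cells of each type in each mouse.

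Horizontal basal cells lie flat on the basement membrane of the olfactory epithelium and are largely quiescent in the undamaged tissue. They express the basal keratins Krt5 and Krt14 and the transcription factor Trp63, which keeps them from differentiating, and after severe injury they divide and can restore both neurons and supporting cells. Globose basal cells, which sit just above them, divide continuously and produce olfactory sensory neurons. Sustentacular (Sus) cells are the supporting cells of the epithelium, rich in detoxifying cytochrome P450 enzymes. The neighbouring respiratory epithelium has its own Krt5-bearing basal cells and its own ciliated and secretory cells.

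HBC2 made up 5.02% of retained cells in mouse 1 (exact 95% interval 4.40 to 5.70), 1.64% in mouse 2 (1.26 to 2.11), 4.52% in mouse 3 (3.81 to 5.33) and 2.62% in mouse 4 (2.18 to 3.12), a mean of 3.45% ± 1.59 (SD, n = 4). The share in mouse 1 was thus about 3 times that in mouse 2, beyond counting error. The whole libraries held 23157467 to 32382702 UMIs in 4746 to 6003 barcodes. The median HBC2 cell held 4943 to 8497 UMIs per mouse, against 3318.5 to 5483.5 in HBC1 and 5760 to 11228.5 in GBC, and the HBC2 sums ranged from 363092 to 2126347 UMIs. Pairs of libraries shared 4 to 14 cell barcodes, 3 of which involved an HBC2 cell. Intervals on shares cover counting error only.

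Checked against its markers, HBC2 was not a uniform group. The annotation also holds an earlier grouping, made by the authors before blood, immune and damaged cells were removed. In it, 411 of the 544 cells were in the single cluster that held both HBC groups, 132 were in the Sus cluster and 1 was in a microvillar cluster. Of the 210 HBC1 cells, 209 were in the HBC cluster. The 411 are called basal-first cells here and the 132 Sus-first cells. The Sus-first share of HBC2 was 23.1%, 26.2%, 21.3% and 28.7% in mice 1 to 4, a mean of 24.8% ± 3.27 (SD, n = 4), so every mouse contributed to both.

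**Figure D1:**
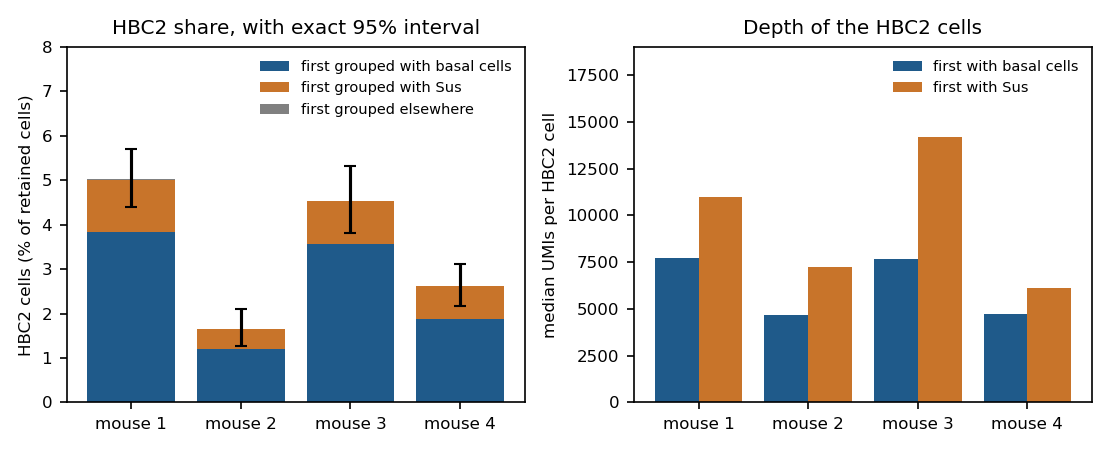
Left, HBC2 cells as a percent of retained cells in each mouse, stacked by the earlier grouping, with the exact 95% binomial interval of the whole bar. Right, median UMIs per HBC2 cell in each mouse for basal-first and Sus-first cells. The Sus-first cells were 21.3% to 28.7% of HBC2 in every mouse and were the deeper cells in each.

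To compare cells at equal depth, each cell was thinned to 3000 UMIs, which kept 481 HBC2, 173 HBC1 and 185 GBC cells and left out 63, 37 and 17. A Krt5 UMI was then found in 68.4%, 72.3%, 71.3% and 58.7% of HBC2 cells of mice 1 to 4, a mean of 67.7% ± 6.24 (SD, n = 4), against 99.6% ± 0.725 of HBC1 cells. The HBC2 share was lower in 4 of 4 mice, and an exact two-sided sign-flip permutation test over the mice gave p = 0.125, the smallest that 4 mice allow. Without thinning the means were 72.2% and 99.1%. Background was low, with Krt5 in none of the thinned GBC or Sus cells and in 0.289% of mature neurons.

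The gap lay mostly with the Sus-first cells. Krt5 was found in 90.7% ± 5.81 of basal-first cells (SD, n = 4) and in 1 of 120 thinned Sus-first cells. Krt14 was found in 83.7% of basal-first and in none of the Sus-first cells, and Trp63 in 55.2% and none. At least 2 of the 4 basal markers Krt5, Krt14, Krt15 and Trp63 were found in 93.1% of basal-first cells, in 98.8% of HBC1 cells and in none of the 120 Sus-first cells, which by the limit of 3 counts allows up to 2.5% of these pooled cells to hold such UMIs at this depth, for counting error only, and does not limit the share that expresses the genes. The Sus-first cells instead held Cyp2a5 in 96.8%, Sec14l3 in 90.7%, Cyp2g1 in 73.0% and the mucin Muc2 in 68.3%. In basal-first cells the same genes were found in 19.7%, 6.47%, 0.911% and none. Only 3 of the 481 thinned HBC2 cells held both a Krt5 and a Cyp2g1 UMI, and none held both Krt5 and Muc2. At equal depth the markers of the Sus-first cells thus go against the label. Results below are over all 544 cells, as the annotation defines HBC2, unless the 411 basal-first cells are named, and gene list calls that differed over the basal-first cells are given beside them.

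**Figure D2:**
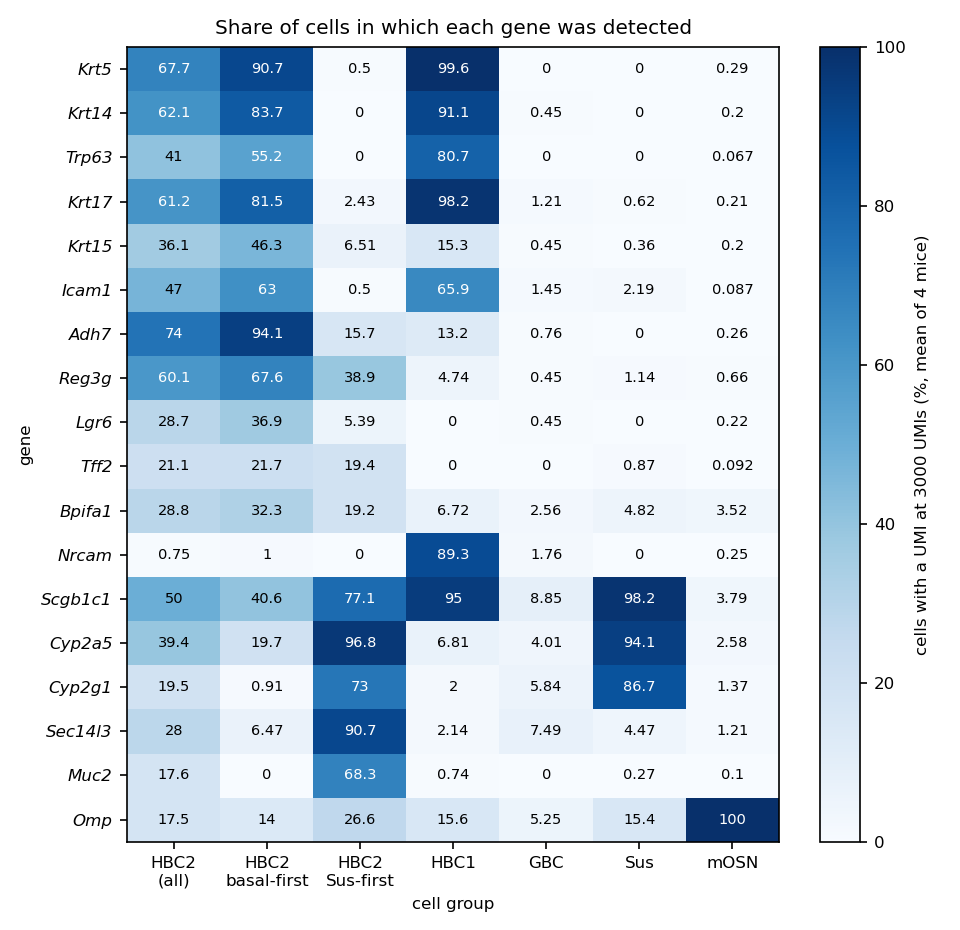
Percent of cells with at least 1 UMI of each gene after thinning every cell to 3000 UMIs, as the mean over 4 mice, for HBC2, its basal-first and Sus-first cells, and 4 other types. Krt5, Krt14 and Trp63 fill the basal-first and HBC1 columns and are at or near 0 in the Sus-first column, where Cyp2a5, Sec14l3, Cyp2g1 and Muc2 are frequent.

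The Sus-first cells were themselves mixed. Muc2 UMIs were present in 92 of the 132, and these cells held Cyp2g1 at 88.4 and Cyp2a5 at 153 UMIs per 10000 but Bpifa1 at only 0.0582. The 40 cells without a Muc2 UMI held Cyp2g1 at 0.769, Bpifa1, a secreted airway defence protein, at 1274, Reg3g, an antimicrobial lectin, at 288 and Lyz2, lysozyme, at 54.1 UMIs per 10000. Only 29 of the 40 held a Bpifa1 UMI. Foxj1, the master factor of motile cilia, was at 2.47 UMIs per 10000 in the cells without Muc2 and 0.194 in those with it. Mouse 2 supplied 14 of the cells with Muc2 but only 2 of those without. The levels of these 2 portions are pooled over the cells of all mice. The levels that follow are means over mice or values per mouse. Of the 10 types HBC2 had the highest Muc2 mean, 2.49 ± 1.14 UMIs per 10000 against 0.106 in HBC1 and 0.00400 in the deposited Sus group, and Sec14l3 stood at 15.2 ± 6.67 in HBC2 against 0.200 in Sus. Conversely the deposited Sus cells held Scgb1c1 at 358 and Sox10 at 1.54, against 44.0 and 0 in the Sus-first cells. These values describe cells grouped on the same transcripts and were not tested. The 7 immune and blood markers summed to 0.395 to 1.29 UMIs per 10000 per mouse in HBC2. HBC2 held 2 UMIs of Sox10, listed here as a marker of ensheathing glia although the deposited Sus cells also held it. It held none of Cdh5, Frzb or Chat, which mark vessels, glia and cholinergic tuft cells. Stromal, vascular and glial markers summed to 7.29 to 8.57 in HBC2 and 1.15 to 2.13 in HBC1, mostly through Dcn. Mature neuron markers were higher and are given with the GBC comparison. Dcn, decorin, a proteoglycan of connective tissue, was at 7.17, 8.40, 7.35 and 8.23 UMIs per 10000 in HBC2 and 1.95, 0.865, 1.60 and 1.41 in HBC1 (log2 fold change 2.45, edgeR adjusted p = 1.88e-06), which was the highest mean of the 10 types and was present in basal-first (6.62 ± 0.720) and Sus-first cells (9.70 ± 1.18) alike.

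Promoter sequences are shown for 6 genes that tell the 2 kinds of HBC2 cell and the HBC groups apart. Krt5 marks both HBC groups, Adh7 and Lgr6 were higher in basal-first HBC2 cells than in HBC1, Reg3g and Bpifa1 were highest in the Sus-first cells without Muc2, and Muc2 marks the other Sus-first cells. Each is the 250 bases before the RefSeq start of the gene on its own strand (GRCm38.p6), namely chr15:101712906-101713155 on the minus strand for Krt5, chr3:138217523-138217772 on the plus strand for Adh7, chr6:78468875-78469124 on the minus strand for Reg3g, chr1:135105277-135105526 on the minus strand for Lgr6, chr2:154142630-154142879 on the plus strand for Bpifa1 and chr7:141690090-141690339 on the plus strand for Muc2. Capitals mark matches on either strand to 3 motifs. The first is TATAAA, the core of the TATA box. The second is CCAAT, which NF-Y recognises. The third is TGANTCA, in which N is any base. It takes in TGACTCA and TGAGTCA, the core recognised by AP-1 factors, and also other middle bases.
Krt5: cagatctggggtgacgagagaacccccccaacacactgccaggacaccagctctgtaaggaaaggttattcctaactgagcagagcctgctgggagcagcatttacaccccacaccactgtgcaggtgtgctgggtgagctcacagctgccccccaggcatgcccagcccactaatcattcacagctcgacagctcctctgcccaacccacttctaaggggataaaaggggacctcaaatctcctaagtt
Adh7: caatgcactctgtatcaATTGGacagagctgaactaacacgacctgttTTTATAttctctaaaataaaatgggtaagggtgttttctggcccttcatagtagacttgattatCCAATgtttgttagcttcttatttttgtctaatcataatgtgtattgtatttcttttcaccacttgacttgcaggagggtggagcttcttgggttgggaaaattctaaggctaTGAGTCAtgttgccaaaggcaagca
Reg3g: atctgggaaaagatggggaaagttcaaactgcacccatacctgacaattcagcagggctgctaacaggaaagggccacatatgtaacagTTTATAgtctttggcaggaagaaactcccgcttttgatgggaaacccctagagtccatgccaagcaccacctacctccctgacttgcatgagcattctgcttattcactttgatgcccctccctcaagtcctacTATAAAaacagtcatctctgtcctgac
Lgr6: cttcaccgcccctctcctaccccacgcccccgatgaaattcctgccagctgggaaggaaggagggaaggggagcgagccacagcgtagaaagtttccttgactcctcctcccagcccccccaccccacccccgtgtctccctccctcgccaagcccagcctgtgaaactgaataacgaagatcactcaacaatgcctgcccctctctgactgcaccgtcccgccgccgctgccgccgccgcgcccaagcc
Bpifa1: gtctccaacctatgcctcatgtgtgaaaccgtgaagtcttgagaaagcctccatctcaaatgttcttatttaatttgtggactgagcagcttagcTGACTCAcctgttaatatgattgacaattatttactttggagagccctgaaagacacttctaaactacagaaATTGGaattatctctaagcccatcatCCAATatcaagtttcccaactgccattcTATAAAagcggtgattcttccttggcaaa
Muc2: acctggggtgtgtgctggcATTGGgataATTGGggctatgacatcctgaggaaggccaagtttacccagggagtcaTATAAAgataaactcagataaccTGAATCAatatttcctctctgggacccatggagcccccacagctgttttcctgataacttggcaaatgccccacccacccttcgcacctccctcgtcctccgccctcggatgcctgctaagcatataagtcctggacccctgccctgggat
TATAAA was found in 12.4% of all promoter windows. CCAAT was found in 33.9% and TGANTCA in 6.75% of the same 32851 RefSeq promoter windows of this length, on either strand. Reg3g held TATAAA 27 bases and Bpifa1 29 bases before the start, on the gene's strand. Adh7, Bpifa1 and Muc2 each held 1 TGANTCA match, which in Muc2 reads TGAATCA and so is not the AP-1 core. Krt5 and Lgr6 held none of the 3 motifs in these windows. A match describes the letters only and is not evidence of binding.

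Against HBC1, 1390 of 6797 genes tested passed an adjusted p of 0.05 in edgeR's quasi-likelihood test with the mouse as a block, 649 higher and 741 lower in HBC2, which is 20.5% of genes, 9.55% higher and 10.9% lower. The levels of the 4 mice did not overlap between HBC2 and HBC1 for 22.6% of genes tested, with HBC2 above HBC1 for 9.72% and below it for 12.9%. Genes named by size had to change alike in every mouse, so a lack of overlap among them follows largely from that choice. Because the authors made the groups from these same transcripts, the p-values are not independent evidence that the groups are distinct. They weigh a difference against a spread that HBC2, HBC1 and GBC share in one fit. A gene can thus fail to pass although HBC2 and HBC1 differed in every mouse. For Lgals3 the edgeR adjusted p was 0.000186 in the shared fit and 1.57e-11 with only the 2 groups compared. With the basal-first cells alone, 1249 of 6482 genes passed (19.3% of genes), 595 higher (9.18%) and 654 lower (10.1%). Of the 649 genes higher with all cells 339 (52.2%) were also called higher with basal-first cells, which is 57.0% of the 595, and of the 741 lower genes 510 (68.8%) were also called lower, 78.0% of the 654. Of the 649 higher genes 38 had the opposite sign without the Sus-first cells. The split between higher and lower depended on the genes and types fitted together. Higher genes were 46.7% of the calls here, 59.5% of 2167 calls without a filter on low counts and 63.1% of 2482 calls with all 10 types in one fit.

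The keratins differed from HBC1 in both directions, and Trp63 was lower. Krt5, on chromosome 15, stood at 7.75, 8.10, 7.34 and 5.94 UMIs per 10000 in HBC2 of mice 1 to 4 and at 24.7, 20.4, 23.1 and 17.1 in HBC1. The ranges did not overlap, and Krt5 fell by 1.48 on the log2 scale (SE 0.25, edgeR adjusted p = 0.000522). In basal-first cells Krt5 was at 11.6 ± 1.27 (SD, n = 4), below all 4 HBC1 values, and the difference shrank to a fall by 0.73 (edgeR adjusted p = 0.0269). Trp63, on chromosome 16, was at 1.33, 2.26, 1.93 and 1.49 UMIs per 10000 in HBC2 against 7.14, 6.56, 8.77 and 5.70 in HBC1, again without overlap. It fell by 1.97 on the log2 scale with all cells (SE 0.16, edgeR adjusted p = 6.57e-07) and by 1.23 with basal-first cells (edgeR adjusted p = 5.13e-05).

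Krt14, the partner of Krt5 in basal keratin filaments, was at 8.33, 11.1, 5.84 and 8.64 UMIs per 10000 in HBC2 and 20.3, 14.4, 19.0 and 14.3 in HBC1. It passed only just with all cells, a fall by 0.98 on the log2 scale (SE 0.33, edgeR adjusted p = 0.0488), and did not pass with basal-first cells (-0.24, edgeR adjusted p = 0.669). Nor did it pass when mouse 1 or mouse 3 was left out. Krt15, a keratin of basal and progenitor cells in other stratified epithelia, went the other way. It stood at 15.0, 2.48, 4.38 and 5.51 UMIs per 10000 in HBC2 and 0.684, 2.38, 0.443 and 1.32 in HBC1, where the lowest HBC2 value, of mouse 2, lay just above the highest HBC1 value, also of mouse 2. The log2 fold change was 2.65 (SE 0.53, edgeR adjusted p = 0.00205) with all cells and 3.36 (adjusted p = 7.14e-05) with basal-first cells. With all cells it was 1.85 without mouse 1 and 3.43 without mouse 2, still past the threshold. Krt14, Krt15 and Krt17 lie in one stretch of chromosome 11, yet Krt17, a keratin of activated and appendage epithelium, was lower in HBC2, at 6.36, 8.62, 6.84 and 5.47 against 27.6, 19.7, 22.6 and 19.4, a fall by 1.65 on the log2 scale (SE 0.25, edgeR adjusted p = 0.000239). In the other 8 types the mean of Krt5, Krt14, Krt15 or Trp63 was at most 0.0686 UMIs per 10000. With DESeq2 the differences of Krt5, Krt14 and Krt15 kept their direction but did not pass (adjusted p = 0.192, 0.649 and 0.0634).

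**Figure D3:**
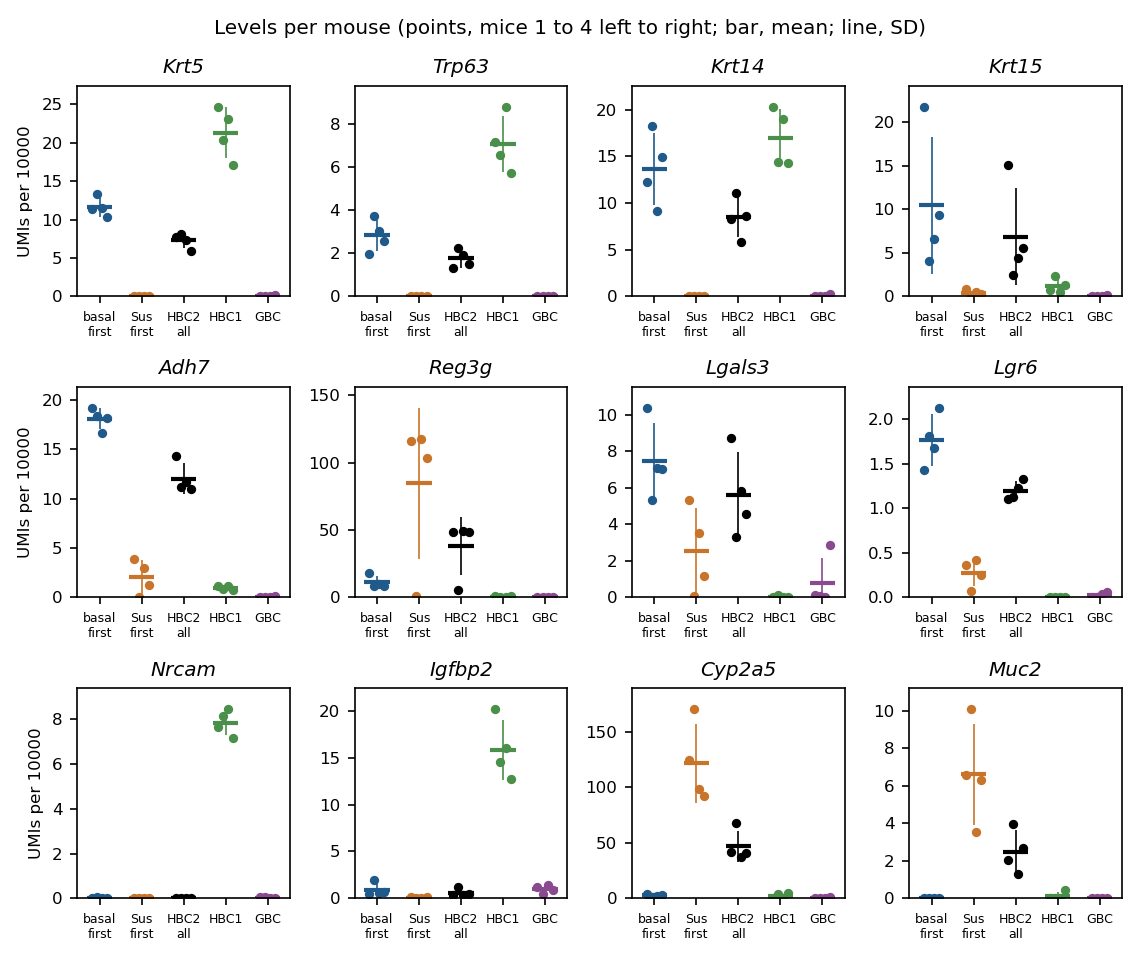
Levels of 12 genes in UMIs per 10000, 1 point per mouse (mice 1 to 4 from left to right), for basal-first and Sus-first HBC2 cells, all HBC2 cells, HBC1 and GBC. Bars are means and vertical lines the SD over 4 mice. Krt5 and Trp63 are lower and Adh7 and Lgr6 higher in basal-first HBC2 cells than in HBC1, and Reg3g in Sus-first cells is near 0 in mouse 2 alone.

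Among the 12 largest rises over HBC1 were Ltf, Tff2, Aldh1a1, Bpifa1, Lgr6, Lgals3, Lyz2, Reg3g, Serpinb11, Tex33 and Sftpd. Of the 12 genes, 8 had their highest mean of the 10 types in HBC2. The rises differed in the kind of HBC2 cell that carried them.

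The first kind was carried by basal-first cells. Lgr6, a receptor for R-spondins of the Wnt pathway, was at 1.10, 1.13, 1.22 and 1.33 UMIs per 10000 in HBC2 and had no UMI in HBC1 of any mouse. Against a floor of 3 counts over the HBC1 group, Lgr6 was at least 40.8-fold higher (edgeR adjusted p = 8.32e-06), and Sus-first cells gave only 9.87% of its HBC2 UMIs. Lgals3, galectin-3, was at 8.74, 3.28, 5.81 and 4.58 UMIs per 10000, against 2 UMIs in HBC1, both from mouse 2, a ratio of 352 with a counting interval of 97.3 to 2906 (edgeR adjusted p = 0.000186). Its log2 fold change was 8.52 with all mice and 7.45 without mouse 1. Without mouse 2, which left no Lgals3 UMI in HBC1, it was 12.28. Adh7, an alcohol dehydrogenase that oxidises retinol, was detected in 94.1% ± 2.96 of basal-first cells, 15.7% ± 11.6 of Sus-first cells and 13.2% ± 5.26 of HBC1 cells (SD, n = 4). Within the Sus-first cells, counted without thinning, an Adh7 UMI was present in 34 of the 40 cells without Muc2 and in 1 of the 92 with it. The level of Adh7 was 14.3, 11.2, 11.7 and 11.0 UMIs per 10000 in HBC2 against 1.11, 0.865, 1.16 and 0.706 in HBC1, with a log2 fold change of 3.70 (SE 0.30, edgeR adjusted p = 8.43e-07). The HBC2 values were tight and far above those of HBC1.

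The second kind came largely from the Sus-first cells. Bpifa1 was at 145, 34.9, 325 and 154 UMIs per 10000 in HBC2 and 0.304, 0, 0.443 and 0.188 in HBC1, and Sus-first cells gave 84.3% of its 86444 HBC2 UMIs. Of those UMIs 52.8% came from 5 cells. Mice 1 to 4 gave Bpifa1 at 357, 0, 848 and 276 UMIs per 10000 in Sus-first cells, with none in mouse 2. In basal-first cells it was still at 40.5, 57.5, 29.3 and 64.7, a log2 fold change of 7.76 (SE 0.85, edgeR adjusted p = 5.74e-06), and 32.3% ± 5.57 of these cells held a UMI. As background beside that share, Bpifa1 was also found in 16.3% of microvillar Mv2 cells and 10.3% of mature neurons of mouse 3, although in at most 5.20% and 1.31% of those of the other mice.

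Reg3g was at 48.7, 5.51, 49.0 and 48.4 UMIs per 10000 in HBC2 and 0.684, 0, 0.341 and 0.941 in HBC1, and 80.5% of its UMIs came from Sus-first cells. Mouse 2 stood well below the others. In basal-first cells Reg3g was at 18.2, 8.34, 10.0 and 8.04 and its log2 fold change was 4.61 (SE 0.37, edgeR adjusted p = 2.47e-07), against 6.39 with all cells (adjusted p = 2.12e-08). Tff2, a trefoil peptide of mucous epithelia, had no UMI in HBC1 and was at least 70.1-fold higher in HBC2 against the same floor, and was detected in 21.7% of basal-first and 19.4% of Sus-first cells. Ltf, lactoferrin, rested on few cells, with 87.1% of its 1028 UMIs in 5 cells and 94.6% from Sus-first cells. It was found in 67.7% of thinned cells of the deposited Sus group, against 3.22% of HBC2 cells. Lyz2 had 94.2% and Tex33 97.9% of its UMIs from Sus-first cells. A Lyz2 UMI was found in 5.65% of thinned HBC2 cells and in 8.55% of Mv2 cells. Ltf, Aldh1a1 and Tex33 were too low in basal-first cells to be tested there. Sftpd, surfactant protein D, was shared, at 2.14 ± 0.425 UMIs per 10000 in basal-first and 2.17 ± 1.28 in Sus-first cells (SD, n = 4).

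**Figure D4:**
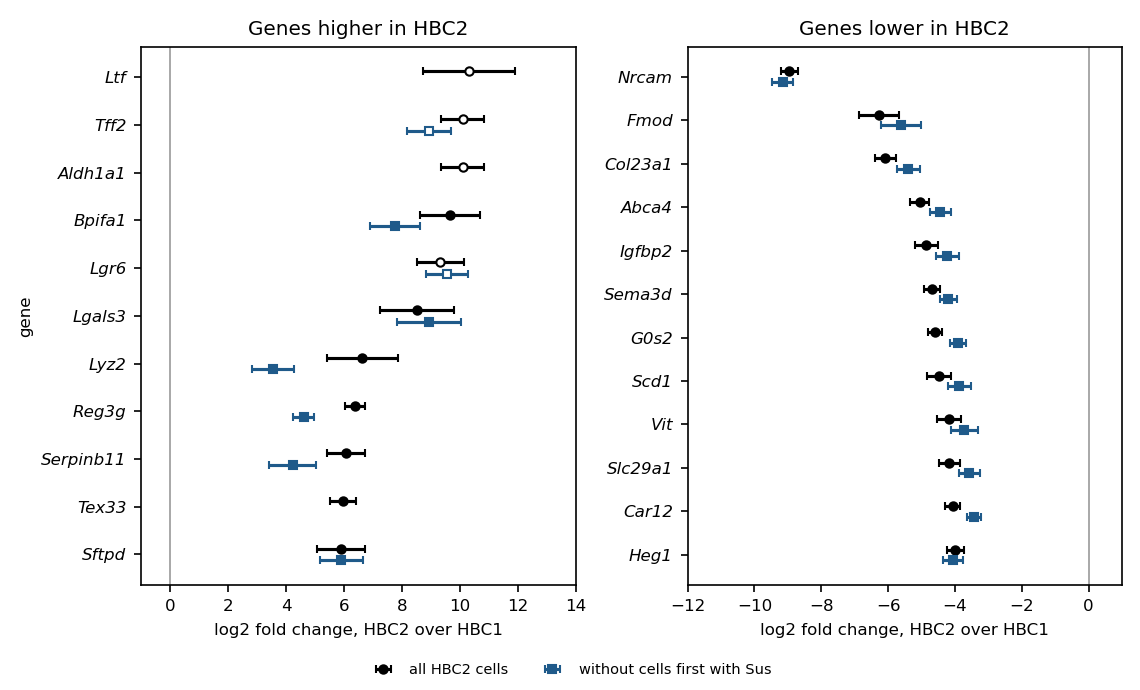
Log2 fold change of HBC2 over HBC1 with its standard error, derived from the test statistic, for 11 of the 12 genes with the largest rise and the 12 with the largest fall. Circles are all 544 HBC2 cells and squares basal-first cells only. Open symbols are genes with no UMI in HBC1, whose fitted value is not a bound, and genes without a square were not tested in basal-first cells. Bpifa1, Lyz2, Reg3g and Serpinb11 shrink without the Sus-first cells, while Lgr6 and Lgals3 do not.

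The same ranking applied to basal-first cells alone, added after the values were seen, again gave Lgr6, Lgals3, Tff2, Bpifa1 and Sftpd and brought in Cd14, Ly6a, Anxa3, Oit1, Pcolce and S100a6. S100a6, a calcium-binding protein, was at 37.0, 21.2, 23.0 and 22.9 UMIs per 10000 in HBC2 against 1.37, 2.81, 1.16 and 1.37 in HBC1, with a log2 fold change of 4.09 (SE 0.58, edgeR adjusted p = 0.000115). Cd14, a co-receptor for bacterial lipopolysaccharide, stood at 0.941, 0.441, 1.00 and 0.765 against 1 UMI in HBC1. Ly6a, the surface antigen Sca-1, was at 4.31, 1.65, 3.22 and 3.13 against 8 UMIs in HBC1, all from mouse 3.

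The 12 genes named by size as lower in HBC2 than in HBC1 were Nrcam, Fmod, Col23a1, Abca4, Igfbp2, Sema3d, G0s2, Scd1, Vit, Slc29a1, Car12 and Heg1. Nrcam, a cell adhesion molecule best known from neurons, was at 7.67, 8.14, 8.46 and 7.16 UMIs per 10000 in HBC1 and at 0.0141, 0.0275, 0.00760 and 0.0132 in HBC2, that is 816 UMIs against 6. It fell by 8.95 on the log2 scale (SE 0.26, edgeR adjusted p = 1.88e-11) and was detected in 89.3% ± 4.66 of HBC1 cells and 0.749% ± 1.01 of HBC2 cells (SD, n = 4), against 1.76% of GBC cells. This SE follows from the test statistic and is not a counting error for the 6 UMIs in HBC2. With DESeq2 the SE was 0.63. Igfbp2, which binds insulin-like growth factors, was at 0.386, 1.21, 0.350 and 0.462 in HBC2 against 20.2, 14.5, 16.0 and 12.7 in HBC1 and fell by 4.86 (SE 0.34, edgeR adjusted p = 2.84e-07). Abca4, a transporter of retinoids, was at 0.0705, 0.275, 0.137 and 0.158 against 5.97, 4.18, 4.13 and 3.91 and fell by 5.06 (SE 0.29, adjusted p = 2.87e-08). Without mouse 1 the log2 fold change of Abca4 was -4.46. In each of these genes the 2 groups were far apart in every mouse. All 12 genes also passed with basal-first cells, with falls on the log2 scale from 3.42 for Car12, a carbonic anhydrase, to 9.16 for Nrcam.

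Genes that bind basal cells to the basement membrane moved in one direction where they were called. Of 11 tested, 7 fell, 4 did not pass and none was higher, beside 10.9% of all genes lower and 9.55% higher. The median log2 fold change was -0.95 against 0.04 over all genes. Lamb3, a laminin-332 chain, was at 1.46, 2.23, 1.92 and 1.50 UMIs per 10000 in HBC2 and 5.16, 5.55, 5.94 and 5.46 in HBC1 and fell by 1.59 (edgeR adjusted p = 1.08e-05). Dst, the plakin that ties keratin to hemidesmosomes, fell by 1.76 (adjusted p = 9.17e-06), and Col17a1 by 1.20 (adjusted p = 0.000168). With basal-first cells 3 of 12 fell (Lama3, Lamb3 and Dst), beside 10.1% of all genes, and over the 11 tested in both the median was -0.38. Of 13 junction genes, 4 were lower and 4 higher. The desmosomal genes Dsp, Pkp1, Pkp3 and Dsc3 were lower, by 1.31 for Dsp (edgeR adjusted p = 0.000116), and Cldn4, Cldn7, Cdh1 and Pkp2 were higher. Cldn4, a tight-junction claudin, was at 1.26, 0.771, 0.707 and 0.646 in HBC2 against 2 UMIs in all of HBC1, with means of 0.910 in basal-first and 0.752 in Sus-first cells. Without the Sus-first cells Cldn4 and Cldn7 were still higher and Dsp, Pkp3 and Dsc3 still lower.

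Of 18 genes of wound and squamous keratinisation, only 5 were high enough to test. Anxa1, Anxa8, Sfn and Dmkn were higher and Krt17 was lower, beside 9.55% and 10.9% of all genes. With basal-first cells these calls held except for Dmkn, which was too low to be tested. Anxa8, a calcium-dependent membrane-binding annexin, was at 3.10, 2.04, 2.46 and 2.93 UMIs per 10000 in HBC2 against 0.886, 0.937, 0.921 and 0.847 in HBC1, and Sfn (14-3-3 sigma), an epithelial cell-cycle regulator, had a log2 fold change of 0.66 (SE 0.14, edgeR adjusted p = 0.00368) that was 1.32 with basal-first cells. Krt6a, Krt6b, Krt16 and Krt13, keratins of wounded or stratified squamous epithelium, had means of at most 0.0491 UMIs per 10000 in HBC2, and the highest value in any mouse was 0.138, of Krt16 in mouse 2.

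Of 9 respiratory epithelium markers tested, 7 were called higher in HBC2 and none was called lower, beside 9.55% and 10.9% of all genes. With basal-first cells 6 of 7 were higher (Bpifa1, Reg3g, Cyp2f2, Tff2, Adh7 and Aldh3a1), beside 9.18% of all genes. Over the 7 genes tested in both, the median log2 fold change was 3.70 with all cells and 4.33 with basal-first cells. Aldh3a1, an aldehyde dehydrogenase, was at 6.56, 6.14, 7.24 and 5.28 UMIs per 10000 in HBC2 and 2.68, 3.10, 3.82 and 2.82 in HBC1 (log2 fold change 1.11, edgeR adjusted p = 0.00365). Cyp2f2, a P450 enzyme of airway cells, was at 46.9, 39.9, 42.2 and 44.0 against 9.60, 7.86, 10.7 and 11.3 (log2 fold change 2.24, SE 0.37, adjusted p = 0.000449). Cyp2f2 was also found in 86.0% of thinned HBC1 cells and 89.2% of Sus cells. Scgb1c1, a secretoglobin also abundant in the deposited Sus cells, did not pass (-0.75, edgeR adjusted p = 0.608), and the airway club cell gene Scgb1a1 had no UMI in HBC2. The ciliary genes Foxj1, Dnah5 and Tppp3 had 79.7% to 92.0% of their HBC2 UMIs in Sus-first cells. Foxj1 and Tppp3 were also found in 19.6% and 16.3% of thinned mature neurons, above the 4.30% and 5.59% of HBC2 cells. Dnah5 was found in 0.805% of mature neurons and 1.16% of HBC2 cells.

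The list of sustentacular markers was only partly borne out by the deposited Sus cells, in which Muc2, Sec14l3 and Cbr2 were found in 0.266%, 4.47% and 29.8% of thinned cells, against 17.6%, 28.0% and 99.6% of HBC2 cells. Of the 11 tested, 8 were higher and 1 lower (Ermn) than in HBC1, but with basal-first cells only Krt18 and Por were higher, while Ermn and Ugt2a1 were lower. Beside this and the enzymes below, 9.55% of all genes were higher and 10.9% lower, or 9.18% and 10.1% with basal-first cells. Cyp2g1, at 16.5, 44.0, 15.4 and 26.8 UMIs per 10000 in HBC2, was at 0, 0, 0.0596 and 0.0457 in basal-first cells, and Cyp2a5 was at 46.8 ± 14.1 in all and 2.58 ± 1.20 in basal-first cells (SD, n = 4), where its log2 fold change of 1.17 did not pass (edgeR adjusted p = 0.277). Por, the reductase that serves P450 enzymes, passed in both, with log2 fold changes of 3.47 and 2.84 (adjusted p = 6.28e-07 and 9.95e-07). Detoxifying enzymes were split as well. Of 10 tested 6 were higher and 1 lower with all cells, and Gsta4, Gsto1, Cbr3 and Mgst1 were higher and Gstm1, Gstm2 and Ephx1 lower with basal-first cells. Gstm1, a glutathione transferase, did not pass with all cells (-0.09, adjusted p = 0.726) but fell by 1.05 in basal-first cells (edgeR adjusted p = 7.5e-06), being at 80.6 ± 19.5 UMIs per 10000 in Sus-first and 20.9 ± 3.16 in basal-first cells (SD, n = 4).

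Signalling genes differed in single members, beside 9.55% of all genes higher and 10.9% lower. In the Notch pathway 4 of 10 were lower and none higher. Notch1 was at 0.541, 0.523, 0.608 and 0.567 UMIs per 10000 in HBC2 against 1.72, 1.66, 1.91 and 1.18 in HBC1, a fall by 1.45 (SE 0.22, edgeR adjusted p = 0.000222), and the ligands Jag2 and Dll1 fell by 1.16 and 1.49 (adjusted p = 0.0027 and 0.00114). Jag2 did not pass with basal-first cells (-0.49, adjusted p = 0.167), where Notch1, Dll1 and Maml2 were still lower. The target Hes1 did not pass (-0.32, adjusted p = 0.189). In the Wnt pathway Lgr6 was higher and Sfrp1, Fzd7, Wnt4 and Znrf3 were lower of 8 tested, with Fzd7, a receptor, and Sfrp1, a secreted inhibitor, still lower in basal-first cells. In the EGF family Hbegf, a ligand, was higher, at 4.40, 2.20, 3.60 and 3.96 against 0.810, 0.937, 0.887 and 1.27 (log2 fold change 1.99, SE 0.20, edgeR adjusted p = 4.61e-06), and 2.66 with basal-first cells. The receptor Erbb3 was higher and Egfr lower, by 1.02 (adjusted p = 0.00218), which did not pass with basal-first cells (adjusted p = 0.193). Of 9 TGF-beta and BMP genes, the BMP targets Id1 and Id3 were higher and the ligand Bmp7 lower. With basal-first cells Bmp7 did not pass (adjusted p = 0.245) and the ligand Tgfb2 was lower, by 1.51 (edgeR adjusted p = 0.00111). Id1 was at 6.09, 6.78, 4.73 and 5.65 UMIs per 10000 in HBC2 against 1.49, 2.38, 1.30 and 1.84 in HBC1 (log2 fold change 1.86, edgeR adjusted p = 3.43e-05), without overlap, and at 5.62 ± 1.38 in basal-first and 6.09 ± 0.177 in Sus-first cells (SD, n = 4).

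Dissociation can induce immediate early genes. Of 17 tested, 7 were lower in HBC2 than in HBC1 and 10 did not pass, beside 10.9% of all genes lower. With basal-first cells 3 were higher (Jun, Ier2 and Dusp1) and 3 lower (Klf2, Klf4 and Socs3), beside 9.18% and 10.1% of all genes. Fos was at 38.0, 25.3, 34.3 and 33.9 UMIs per 10000 in HBC2 and 59.0, 32.6, 47.0 and 53.2 in HBC1, with overlapping ranges, a fall by 0.46 (edgeR adjusted p = 0.0162) that did not pass with basal-first cells (adjusted p = 0.567). Cell division genes summed to 5.45 to 8.28 UMIs per 10000 in HBC2 and 4.33 to 9.37 in HBC1, and Mki67, a marker of cycling cells, was found in 6 HBC2 cells. Of 18 tested 4 were higher (Mki67, Top2a, Cenpf and Hmgb2) and 1 lower (Mcm4), beside 9.55% of all genes higher and 10.9% lower. With basal-first cells Hmgb2 was higher and Stmn1 lower, beside 9.18% and 10.1% of all genes. Of 11 cell-cycle brakes and cyclins D, Ccnd1 was higher and Ccnd2, Rbl2 and Gas1 were lower, and with basal-first cells Cdkn1a, Ccnd1 and Btg2 were higher and Rbl2 and Gas1 lower. Ccnd2, cyclin D2, was at 3.12, 3.99, 4.13 and 3.44 against 8.63, 11.2, 9.38 and 7.39 and fell by 1.23 (SE 0.17, edgeR adjusted p = 0.000102), though not past the threshold in basal-first cells (adjusted p = 0.0665). Among epithelial cytokines, Il33, an alarmin, was higher, at 1.67, 2.95, 1.66 and 2.72 against 0, 0, 0 and 0.377 (edgeR adjusted p = 6.74e-06), with 87.9% of its UMIs from Sus-first cells, and Cxcl14 and Icam1 were lower of 7 tested. Icam1, an adhesion molecule used to sort HBCs, was at 4.11 ± 0.487 UMIs per 10000 in basal-first HBC2 cells and 4.20 ± 0.207 in HBC1 (SD, n = 4), and did not pass there (adjusted p = 0.696).

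**Figure D5:**
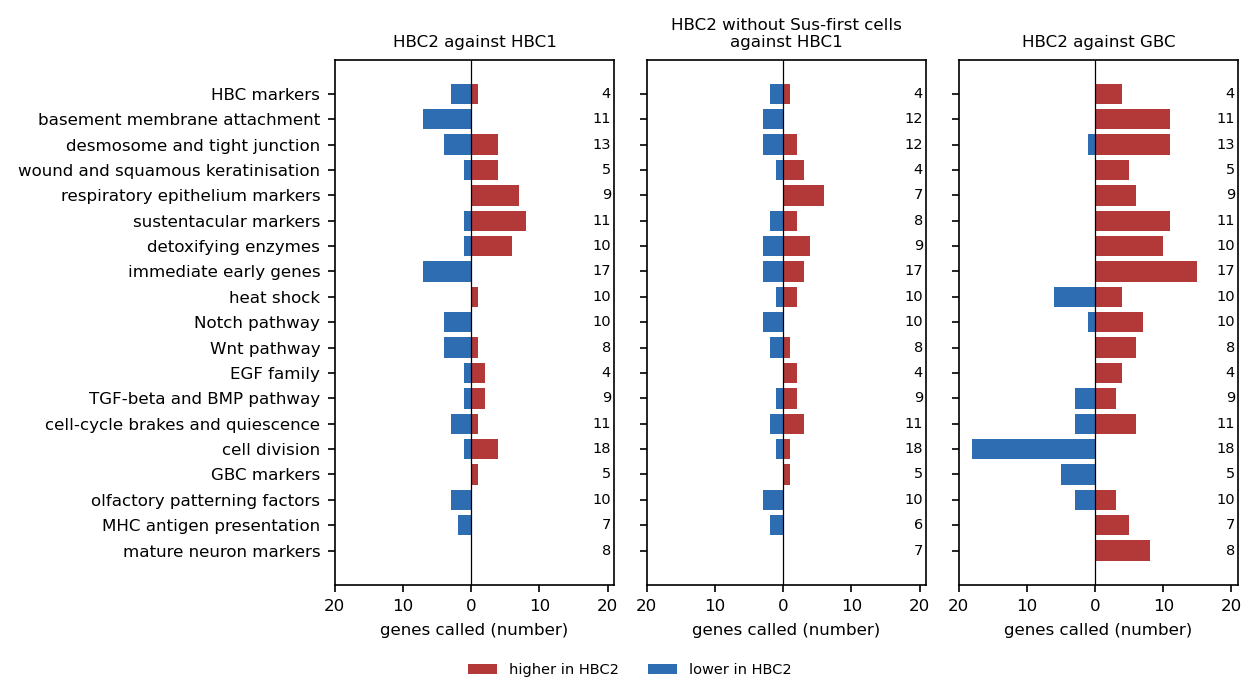
Number of genes of each list called higher (right of 0) or lower (left of 0) in HBC2 by edgeR at an adjusted p of 0.05, for HBC2 against HBC1, basal-first HBC2 cells against HBC1, and HBC2 against GBC. The number at the right edge is how many genes of the list were tested. Respiratory epithelium markers stay higher than in HBC1 without the Sus-first cells, sustentacular markers mostly do not, and all 18 cell division genes are lower than in GBC.

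Against GBC the differences were wider. In the same fit, 3790 of 6797 genes passed, 55.8% of those tested, 2018 (29.7%) higher and 1772 (26.1%) lower in HBC2, and with basal-first cells 3721 of 6482 passed (57.4%), 1912 higher (29.5%) and 1809 lower (27.9%). Of the 2018 higher genes 1613 (79.9%) were also higher without the Sus-first cells, 84.4% of the 1912 called there, and of the 1772 lower genes 1576 (88.9%) were also lower, 87.1% of 1809. All 4 basal markers were higher in HBC2. Krt5 was at 0.0283, 0, 0 and 0.172 UMIs per 10000 in GBC, and Trp63 had a single UMI in GBC, a ratio of 362 with a counting interval of 64.8 to 14325. Log2 fold changes were 6.98 for Krt5, 6.84 for Krt14 and 7.26 for Krt15 (edgeR adjusted p = 4.53e-09, 6.63e-08 and 1.05e-06). Without 1 mouse they ranged from 6.36 to 8.81, from 6.07 to 10.23 and from 5.91 to 9.46, the highest in each case without mouse 4, where GBC held at most 3 UMIs of each gene and the fitted value is imprecise.

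The 8 genes named as higher than in GBC were Reg3g, Pon1, Trim29, Muc16, Tns4, Muc2, Defb1 and Bpifa1. Trim29, a basal epithelial gene, and Tns4, a focal adhesion gene, came from basal-first cells, with 0.626% and 1.03% of their UMIs in Sus-first cells. Trim29 was at 1.00, 1.43, 1.05 and 1.00 UMIs per 10000 in HBC2 and had no UMI in GBC, so it was at least 79.0-fold higher against the floor of 3 counts (edgeR adjusted p = 3.41e-08). Defb1, a beta-defensin, was at 2.12, 1.07, 1.30 and 1.66 against 1 UMI in GBC and likewise came from basal-first cells. Muc16, a membrane mucin, and Pon1, a paraoxonase, had 81.4% and 77.1% of their UMIs in Sus-first cells. With basal-first cells Muc16 and Muc2 were too low to be tested. HBC2 lay above GBC without overlap for all 8, which the naming rule largely fixed. Over all genes tested, levels did not overlap for 50.7%, with HBC2 above GBC for 22.7% and below it for 28%.

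The 8 named as lower were Cldn5, Neurod1, Mfng, Fabp7, Ccnb1, Ube2c, Plk1 and Pclaf. Neurod1, a neurogenic transcription factor, was at 6.85, 6.88, 5.31 and 3.43 UMIs per 10000 in GBC and had 5 UMIs in HBC2, all from mouse 1 (log2 fold change -8.71, SE 0.35, edgeR adjusted p = 2.24e-09). Without mouse 1, HBC2 held no UMI of Neurod1. Cldn5 had no UMI in any HBC2 cell, against 189 in GBC, and was at least 127-fold lower. Ube2c, a ubiquitin-conjugating enzyme of mitosis, was at 0.118, 0.0275, 0.0228 and 0.0528 in HBC2 against 8.27, 7.58, 9.10 and 8.83 in GBC. All 18 cell division genes tested were lower in HBC2, with a median log2 fold change of -4.23 against 0.03 over all genes, and all 5 GBC markers tested were lower (Kit, Hes6, Neurog1, Neurod1 and Ezh2). Mki67 was at 0.0941, 0.110, 0.0989 and 0.0264 against 3.46, 2.65, 4.68 and 2.82, and 6 HBC2 cells held a UMI of it. Of the cell-cycle brakes and cyclins D, 6 of 11 were higher and 3 lower, beside 29.7% and 26.1% of all genes. The cyclin Ccnd2 was higher (log2 fold change 4.15, edgeR adjusted p = 3.26e-09) and the cyclin Ccnd1 lower. Cdkn1c and Cdkn1b, inhibitors of cyclin-dependent kinases, were lower by 2.76 and 0.80 (adjusted p = 9.34e-07 and 0.000372).

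The shares over all genes against GBC were 29.7% higher and 26.1% lower, and 29.5% and 27.9% with basal-first cells. Basement membrane genes were higher than in GBC in 11 of 11, with a median log2 fold change of 2.24, and junction genes in 11 of 13. Detoxifying enzymes were higher in 10 of 10. The sustentacular list, with the same 3 exceptions in the deposited Sus cells, was higher in 11 of 11 and immediate early genes in 15 of 17. With basal-first cells the counts were 12 of 12, 10 of 12, 9 of 9, 5 of 8 and 16 of 17, and over the 8 sustentacular markers tested in both the median was 2.03 in place of 4.19. Fos stood at 6.54, 5.01, 8.11 and 6.36 UMIs per 10000 in GBC, below every HBC2 value, and Egr1 at 2.24, 1.16, 3.85 and 1.56 in GBC against 10.6, 10.7, 14.7 and 14.6 in HBC2. Notch genes were higher in 7 of 10, with Hes1 at a log2 fold change of 2.73 (edgeR adjusted p = 1.3e-08) and only Nrarp lower. Of the Wnt genes 6 of 8 and of the EGF family 4 of 4 were higher, and of the TGF-beta and BMP genes 3 of 9 were higher and Tgfb2, Id2 and Id3 lower, close to the shares over all genes. With basal-first cells Erbb3 was no longer higher, Tgfb1, Bmp7 and Bmpr1a joined the higher TGF-beta and BMP genes (6 of 9), and Id3 did not pass.

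Markers of mature neurons moved with this comparison. All 8 of the list were called higher in HBC2 than in GBC, beside 29.7% of all genes. Their summed level was 23.2 to 67.2 UMIs per 10000 in HBC2, 9.70 to 36.0 in HBC1 and 2.20 to 13.3 in GBC. Omp was found in 17.5% of thinned HBC2 cells, 15.6% of HBC1 and 15.4% of Sus cells but 5.25% of GBC, and receptor genes took 0.0338% to 0.0624% of HBC2 UMIs against 0.900% to 0.933% in mature neurons. With basal-first cells 5 of 7 were higher than in GBC, the sum was 6.07 to 29.9 and over the 7 tested in both the median log2 fold change was 1.16, against 1.91 with all cells. Their part in the GBC comparison was not tested. Against HBC1 none of the 8 was called, and none of the 7 tested with basal-first cells. The median log2 fold change of the list against HBC1 was 0.46 with all cells. Over the 7 tested in both it was 0.51 with all cells and -0.22 with basal-first cells. Doublet scores were ranked over all barcodes of each library, including those the authors removed. Of the 4% with the highest score 38 were in HBC2 (6.99% of the group), 7 in HBC1 and 34 in GBC (16.8%). Without the cells of this 4%, 1378 and 3728 genes passed against HBC1 and GBC. In addition 26 of the 202 GBC cells had first been grouped with the HBCs.

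The 10 most abundant HBC2 genes with a symbol of their own, leaving out mitochondrial and ribosomal protein genes, were Malat1, Bpifa1, Cbr2, Tpt1, Prdx6, Eef1a1, Tmsb4x, Cyp2a5, Gstm1 and Cyp2f2. Cbr2, a carbonyl reductase, was at 67.1, 83.5, 71.7 and 61.0 UMIs per 10000 in HBC2, 49.5, 58.6, 53.3 and 48.1 in HBC1 and 0.113, 0.124, 0.0955 and 1.78 in GBC. It stood at 71.0 ± 13.1 in basal-first and 71.2 ± 5.65 in Sus-first cells (SD, n = 4), and its difference from HBC1 did not pass (0.52, edgeR adjusted p = 0.469) although every HBC2 value exceeded every HBC1 value. That fit also holds the GBC values, whose part in this p-value was not tested. Prdx6, an antioxidant peroxiredoxin, was at 58.0, 51.2, 62.7 and 43.7 against 9.37, 8.22, 9.76 and 12.0 in HBC1, a log2 fold change of 2.52 (SE 0.20, edgeR adjusted p = 7.92e-07) that was 2.28 in basal-first cells.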

How the data were processed

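Dissociated main olfactory epithelium of 4 mice was profiled by droplet single-cell RNA-seq, 1 library per mouse. The authors made the deposited UMI counts with Cell Ranger 6.0.1 on the GRCm38 build, with receptor gene ends re-annotated, then clustered the cells, removed blood, immune and damaged cells (over 10% mitochondrial UMIs or under 1000 genes), and named 10 types. These raw counts and that annotation were used as deposited, and doublets were scored with Scrublet only for an alternative. The integrated values behind the clusters were not used here.

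Counts were summed per mouse and type and tested with edgeR 4.0.16 in R 4.3.3 (quasi-likelihood test, TMM, filterByExpr, Benjamini-Hochberg), with HBC2, HBC1 and GBC in one fit and the mouse as a block. The block follows from the design, since types of one mouse share an animal and a library. Cells are not replicates, so the cell-level rank test in the study's methods was replaced. Cells were thinned to 3000 UMIs for detection shares (Python 3.11.15, scanpy 1.11.5). Levels are UMIs per 10000 UMIs of the summed cells. The SE of an edgeR log2 fold change was derived as its size over the square root of the F statistic. It is not a counting error and is not reliable for genes with few UMIs in 1 group. On simulated data of the HBC1 comparison over 6282 genes the test recovered 74 of 100 genes changed by 1 on the log2 scale. It recovered all 100 changed by 2, with 4.40% false among its calls. The simulation gave HBC2, HBC1 and GBC the HBC1 profile, with the same spread for all genes and no mouse effect. Only genes with enough expected counts were changed, so these rates do not carry over to the real comparison.

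Named genes were those called, changed alike in 4 of 4 mice and at a mean of at least 1 UMI per 10000 in the higher group, outside receptor, mitochondrial, ribosomal protein and clone-named genes. They were the 12 largest changes in each direction against HBC1, the 8 largest against GBC, the 10 most abundant genes, and members of 26 gene lists. A few results for single genes are not reported here. Genes such as S100a6, Cd14 and Ly6a were named by the same ranking over basal-first cells, chosen after their values were seen, as was the Muc2 split. The cells, lists and tests were chosen with earlier results of these data known. Alternatives were DESeq2 1.42.0, no filter, no block, only the 2 groups compared, all 10 types in one fit, thinned cells, removal of the highest doublet scores and of each mouse, and removal of the Sus-first cells, the last added after seeing the data. Sequences are from RefSeq tables, in which 46 of 61 named genes had a promoter entry.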

Additional observations from a re-analysis of the deposited data

Results flagged for a closer look

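Among 169 values tested over the 4 mice, 15 had 1 mouse far from the other 3. Chance does so in about 1 of 20 for normally spread, continuous values. All are HBC2 levels in UMIs per 10000. Mouse 2, which supplied the fewest HBC2 cells, stood apart for Reg3g (5.51), Aldh1a1 (0.689), Cyp2a5 (67.7), Igfbp2 (1.21), Trim29 (1.43), Dsc3 (1.07) and Krt16 (0.138). It was the low mouse for Reg3g and Aldh1a1 and the high mouse for the others. Mouse 1 was high for S100a6 (37.0) and held all UMIs of Neurod1 and Mfng (0.0235 each) and of Krt6b (0.00941). Mouse 4 stood apart for Basp1 (0.857), Pclaf (0.211) and Sox10 (0.0264), and mouse 3 for Cxcl14 (0.00760). A gene with all its UMIs in 1 mouse is always flagged. Neurod1, Mfng, Krt6b and Sox10 were such genes, so the chance rate does not apply to them.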

How the results depend on the processing

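Without the mouse block 1356 genes passed against HBC1 and 3798 against GBC, so the pairing changed neither count by over 1.5 times. Against HBC1, 2167 genes passed without a filter on low counts, 2482 with all 10 types in one fit and 713 with cells thinned to 3000 UMIs, where 3310 genes were tested. Leaving out 1 mouse gave 889 to 1564 (889 without mouse 1, 923 without mouse 3). Against GBC, 6353 passed with all 10 types and 1725 with thinned cells, and leaving out 1 mouse gave 3060 to 4525. The mean HBC2 share was 2.93% to 4.05% without 1 mouse. Genes named by size were chosen as called and alike in every mouse, which largely fixed in advance that they would pass again. Values that an alternative left untested were not counted, so 43 entered with thinned cells, where Ltf was missing, and 48 without a filter. Of 563 values of the genes named by size or as HBC markers under an alternative, 556 kept their direction and side of the threshold. Another 7 kept their direction but did not pass. Those were Krt5, Krt14, Krt15 and, against GBC, Cldn5 with DESeq2 (Cldn5 adjusted p = 0.0544), and Krt14 without mouse 1 (edgeR adjusted p = 0.0861), without mouse 3 (0.252) and without the Sus-first cells (0.669). The cause was not tested except that thinning leaves fewer genes to test. HBC1 was the shallowest of the 3 groups, and the part of its depth in how many genes could be tested was not tested.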

Other observations

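Factors that pattern the olfactory epithelium differed in single members between HBC2 and HBC1. Otx2, a homeobox factor, fell by 0.67 with all cells and by 1.23 with basal-first cells (edgeR adjusted p = 0.0141 and 0.000243), where it stood at 1.12 ± 0.208 against 2.78 ± 0.569 in Sus-first cells (SD, n = 4).

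The list counts below stand beside 9.55% of all genes higher and 10.9% lower than in HBC1, or 9.18% and 10.1% with basal-first cells. Of 7 antigen presentation genes tested, B2m and Cd74 were lower in HBC2 than in HBC1 and none was higher, also with basal-first cells. B2m, the light chain of class I molecules, was at 1.03, 0.936, 1.83 and 0.805 in HBC2 and 2.20, 1.44, 3.55 and 3.20 in HBC1, and the ranges overlapped. Of 10 heat shock genes Hspb1 was higher and none was lower with all cells, beside 9.55% of all genes higher, and with basal-first cells Hspa1b was also higher and Hsph1 lower. Hspb1 was at 12.7, 11.0, 11.0 and 13.0 against 9.72, 6.27, 7.95 and 7.81 (log2 fold change 0.65, edgeR adjusted p = 0.0285). Of 5 zone markers tested, Acsm4 and Nfix were lower and none was higher, and with basal-first cells Nfix did not pass. Of 4 microvillar markers Ascl3 and Coch were higher with all cells and none was called with basal-first cells. Of 3 gland markers Ltf was higher and Sox9 lower, and with basal-first cells Sox9 was still lower. Of 6 immature neuron markers none was called with all cells, and of 5 tested with basal-first cells Gng8 and Stmn2 were lower.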
